A study of Triticum aestivum with 24 samples.

Results

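Hexokinase (AY974231) and GAPC8 (KR029493) were the entries for enzymes of glycolysis in a set of 26 wheat genes whose RNA was measured in leaves and stems. Both were taken by their names in the deposited sheet, with 1 row per source sequence, which gave 2 of the 26 genes. Hexokinase phosphorylates glucose at the entry of glycolysis and, in Arabidopsis, also acts as a glucose sensor. GAPC is the cytosolic glyceraldehyde-3-phosphate dehydrogenase, which works further down the pathway and yields NADH, and GAPC8 is the name of the wheat sequence in the sheet. Sucrose and starch made in leaves feed hexose into this pathway. The sheet has a further entry named PK, a name that the sources used here do not spell out, and it was not counted with the glycolysis genes.

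The plants were spring wheat of the Fortuna background, grown in the field. *Rht-B1b* plants were a semi-dwarf near isogenic line whose allele was brought in by backcrossing to Fortuna, and *Rht-B1a* plants carried the wild type, standard height allele. Rht-B1 encodes a DELLA protein, a repressor of growth in gibberellin signalling. RNA came from flag leaves and from stems between the first and the second internode at 14 days past anthesis (DPA), with 3 replicates in each of the 4 groups (*Rht-B1b* leaves, *Rht-B1a* leaves, *Rht-B1b* stems and *Rht-B1a* stems). A replicate is described once as a composite of plants of a row and once as a single leaf or internode of a plant, with the replicates in different rows in both. The p-values measure only the spread between these samples.

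Values are RPKM, read numbers divided by the length of the sequence and the size of the library, which can be compared between genes, and each sample was scaled by the authors to the same actin value of 1432.5. Depth is unknown, so precision rests on the spread between replicates. Reads were counted only where they matched a listed sequence fully, and hexaploid wheat has closely related copies of both genes, so the values are uncertain to the extent that copies share reads. In the leaf samples the 3 rbcS sequences and rbcL, which encode the subunits of RuBisCO, had lowest values 4.35 to 11.3 times the highest stem value, so the leaf and stem labels fitted these leaf markers. The 4.35 was that of rbcL, which had very low values, 0.966 to 1.789 RPKM in leaves and 0.117 to 0.222 RPKM in stems. Actin was fixed by the scaling and was not tested. In bulk tissue a smaller share of cells that express a gene cannot be told apart from less RNA per cell.

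Leaves and stems separated the genes in opposite directions. Hexokinase was higher in leaves than in stems, 3.07 times in *Rht-B1b* and 3.98 times in *Rht-B1a* by the group means, while GAPC8 was lower in leaves, at 0.394 times the stem mean in *Rht-B1b* and 0.595 times in *Rht-B1a*. Both differences passed the test in both lines, as did 72.0% of the 25 genes tested in *Rht-B1b* and 76.0% in *Rht-B1a*. The within-sample ratio of GAPC8 to hexokinase was 8.13 times as large in stems as in leaves of *Rht-B1b* and 6.63 times as large in *Rht-B1a*. Between the lines neither gene passed the test in either tissue, although GAPC8 was higher in every *Rht-B1b* stem than in any *Rht-B1a* stem, a separation in this direction that 60.0% of the 25 genes showed. In stems GAPC8 lay near the threshold, and 4 of 11 alternative settings passed it.

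Hexokinase, in the order of pairs 1, 2 and 3, had 560.5, 667 and 480 RPKM in *Rht-B1b* leaves. The *Rht-B1a* leaves had 690.2, 464 and 469 RPKM. In these 6 leaves the lines overlapped, and the highest single value was in an *Rht-B1a* leaf while the other *Rht-B1a* leaves were the lowest of the 6. In stems hexokinase had 127, 168 and 261 RPKM in *Rht-B1b* and 166, 107 and 134 RPKM in *Rht-B1a*. The stem values of the lines also overlapped, with the highest in the *Rht-B1b* stem of pair 3, and every stem lay below every leaf. Hexokinase was among the least abundant genes of the set. It ranked 25 of 26 from the top in all 6 stems, where only rbcL was lower, and between 19 and 21 in the leaves. Its level was 0.324 to 0.482 of the actin level in leaves and 0.0748 to 0.182 of it in stems.

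GAPC8, in the same order of pairs, had 47024, 33279 and 39746 RPKM in *Rht-B1b* leaves. It had 45468, 33798 and 37893 RPKM in *Rht-B1a* leaves. The leaves of each pair lay close together, and the lines overlapped throughout. In stems GAPC8 had 97205, 95664 and 111790.2 RPKM in *Rht-B1b* and 68767, 46503 and 81676 RPKM in *Rht-B1a*. The lowest *Rht-B1b* stem lay above the highest *Rht-B1a* stem, and the *Rht-B1a* stem of pair 2 was close to the highest leaves. GAPC8 ranked 2 of 26 from the top in all 6 stems and 6 in all 6 leaves. Against actin it was 23.2 to 32.8 times as high in leaves and 32.5 to 78.0 times as high in stems.

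**Figure D1:**
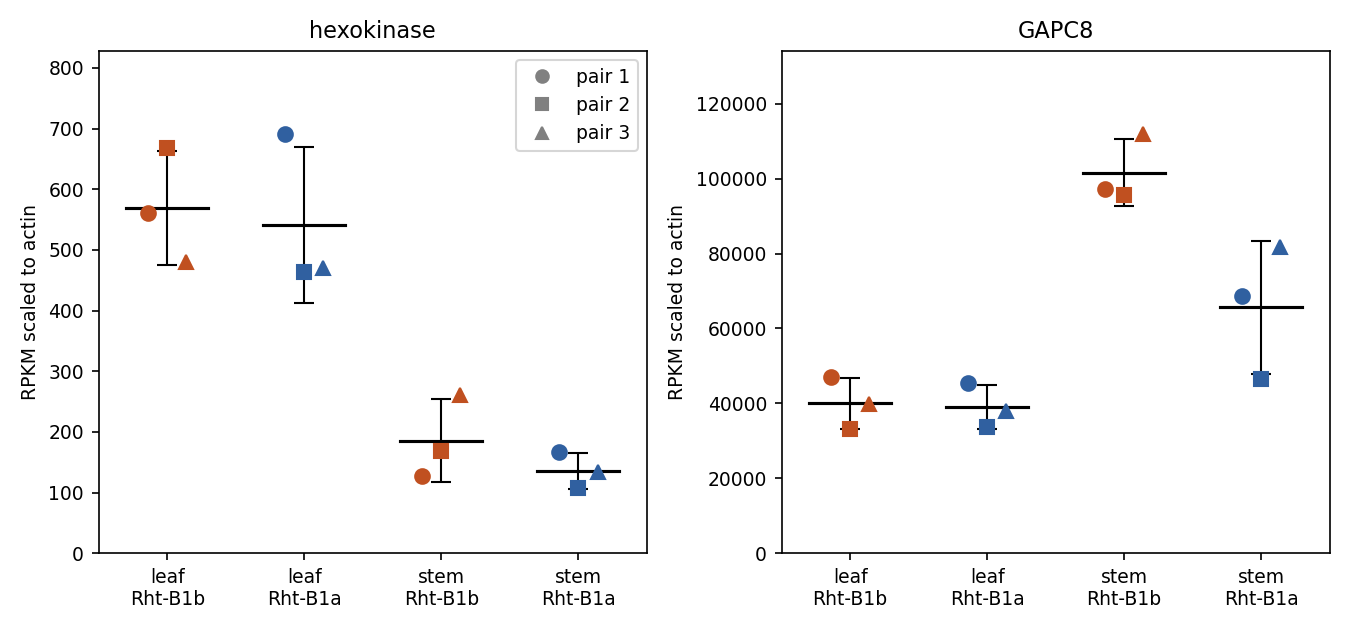
RPKM scaled to actin (y axis, from 0) of hexokinase (left) and GAPC8 (right) in each of the 12 tissue samples, by tissue and line (x axis), with marker shape for the pair, long bars for the group mean and error bars for the SD (n = 3). Hexokinase lies between 464 and 690.2 RPKM in leaves and between 107 and 261 RPKM in stems, while GAPC8 lies highest in the 3 *Rht-B1b* stems, from 95664 to 111790.2 RPKM.

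By group mean hexokinase was ordered *Rht-B1b* leaves, *Rht-B1a* leaves, *Rht-B1b* stems and *Rht-B1a* stems, at 569 ± 94.0, 541 ± 129, 185 ± 68.7 and 136 ± 29.5 RPKM (SD, n = 3 each). Of the neighbours in this order only *Rht-B1a* leaves and *Rht-B1b* stems were apart without overlap. GAPC8 was ordered *Rht-B1b* stems, *Rht-B1a* stems, *Rht-B1b* leaves and *Rht-B1a* leaves, at 101553 ± 8899, 65649 ± 17793, 40016 ± 6877 and 39053 ± 5921 RPKM (SD, n = 3 each). Here only the stems of the lines were apart, and the lowest *Rht-B1a* stem fell between the *Rht-B1b* leaves. The spread of GAPC8 between replicates, as a coefficient of variation of the RPKM, was 8.76% in *Rht-B1b* stems and 27.1% in *Rht-B1a* stems. That of hexokinase was 37.0% in *Rht-B1b* stems and 21.7% in *Rht-B1a* stems, so the groups with the widest spread differed between the genes. In leaves it was 16.5% in *Rht-B1b* and 23.9% in *Rht-B1a* for hexokinase, and 17.2% in *Rht-B1b* and 15.2% in *Rht-B1a* for GAPC8.

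The leaf and stem levels were compared with limma on log2(RPKM + 1), a moderated linear model fitted over the 25 genes other than actin, with Benjamini-Hochberg adjustment over all of them and a threshold of 0.05. In *Rht-B1b* hexokinase had a log2 fold change of leaf over stem of 1.66 (standard error 0.28, 95% interval 1.08 to 2.25, adjusted p = 9.27e-06 from limma). GAPC8 had one of -1.35 (standard error 0.26, 95% interval -1.89 to -0.82, adjusted p = 4.65e-05 from limma). Passing was common in this comparison, where 18 of 25 genes passed, or 72.0%, with 11 higher and 7 lower in leaves. Groups that did not overlap made up 76.0% of the 25 genes, 12 of them higher and 7 lower in leaves. In *Rht-B1a* hexokinase had a log2 fold change of 1.98 (standard error 0.28, 95% interval 1.40 to 2.57, adjusted p = 5.69e-07 from limma) and GAPC8 one of -0.72 (standard error 0.26, 95% interval -1.26 to -0.19, adjusted p = 0.0144 from limma). There 76.0% of the genes passed, 13 of them higher and 6 lower, and 80.0% did not overlap, 14 higher and 6 lower. That both genes passed in both lines is therefore a share that most of the set reached, and it was their directions that differed from each other.

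Among the 26 genes, with actin at 0, the leaf over stem difference of hexokinase ranked 8 from the top in both lines on the log2(RPKM + 1) scale, and 9 without the pseudocount of 1. That of GAPC8 ranked 23 in *Rht-B1b* and 21 in *Rht-B1a* either way. The genes above hexokinase were the rbcS sequences, the sucrose transporter SUT1D, an ATP synthase subunit, glutamine synthetase GS2 and nitrite reductase NiR, in both lines, and without the pseudocount also rbcL. The rbcL entry lay under 2 RPKM in every sample, and its ratio to hexokinase had a log2 leaf over stem value of 1.09 in *Rht-B1b* and 1.35 in *Rht-B1a*. Below GAPC8 in *Rht-B1b* were agp2, GDH and NADH-GOGAT-3B, and in *Rht-B1a* the Rht-D1 and Rht-B1 entries as well. The ranks without a pseudocount do not depend on how a sample was scaled. An exact two-sided permutation test of 3 against 3 samples gave p = 0.1 for either gene in either line, which is the smallest it can give. With tissues permuted within each line the mean difference in log2 was 1.82 for hexokinase and -1.04 for GAPC8, and the exact permutation p was 0.005 for each, the smallest that 400 arrangements can give (adjusted p = 0.03 over 18 exact tests). Hexokinase was higher in 6 of 6 leaves than in any stem, and GAPC8 was lower in the leaves than in any stem of the same line.

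**Figure D2:**
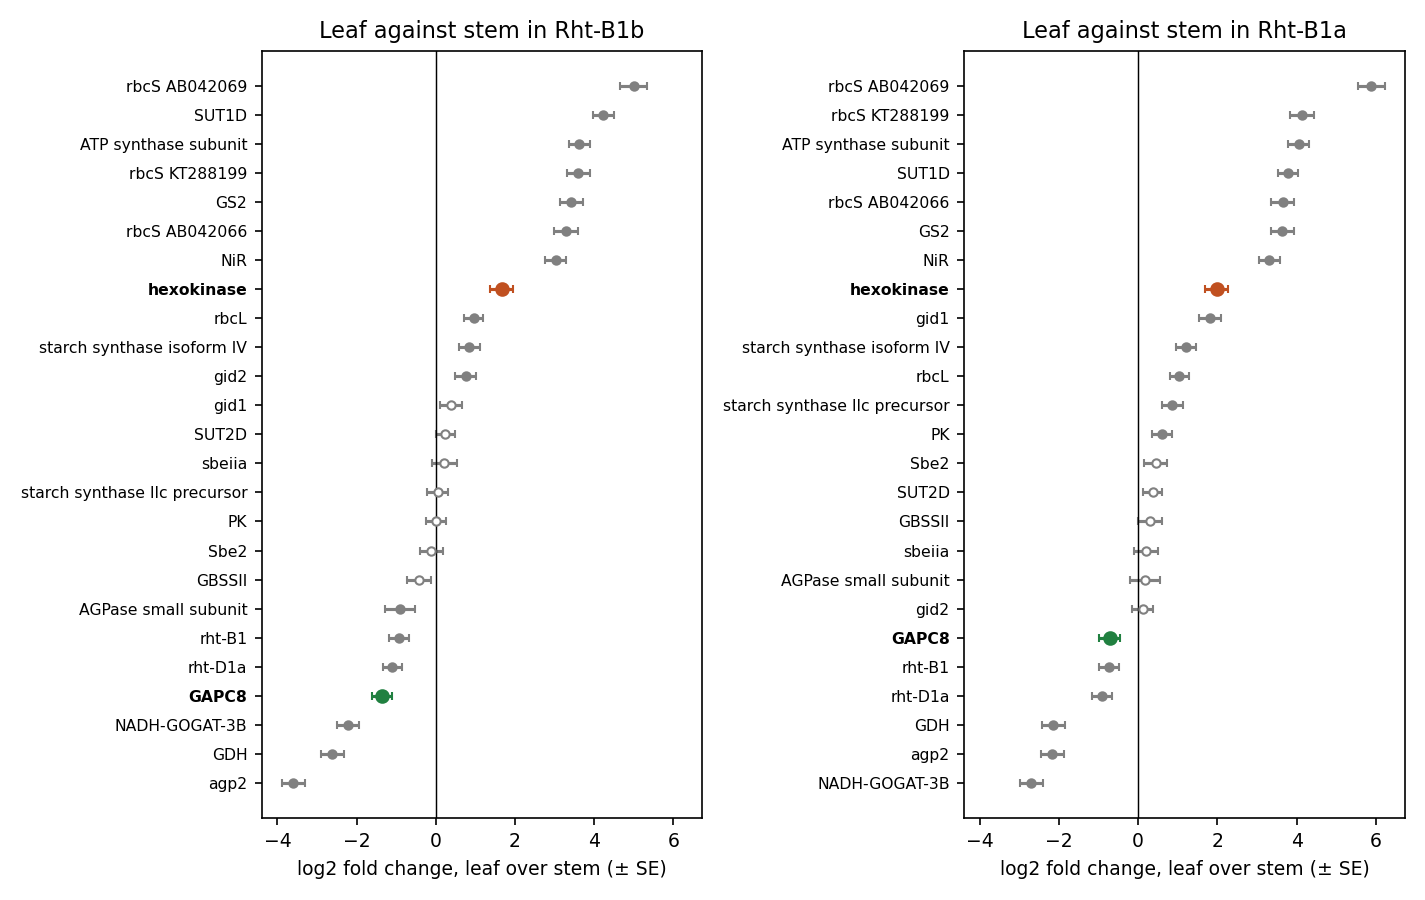
Log2 fold change of leaf over stem (x axis, ± standard error from limma) for each of the 25 genes tested (y axis, sorted), in *Rht-B1b* (left) and *Rht-B1a* (right), with filled points for an adjusted p under 0.05. Hexokinase (1.66 and 1.98) lies below 7 other genes on this scale, where the pseudocount of 1 lowers rbcL, and GAPC8 (-1.35 and -0.72) near the lower end in both lines.

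Between leaves and stems of *Rht-B1a*, GAPC8 still passed without the stem of pair 2 (adjusted p = 0.00367 from limma). It also passed without the leaf of pair 1 (adjusted p = 0.00538) or of pair 3 (adjusted p = 0.0278). The call for GAPC8 in *Rht-B1a* was lost when any 1 of the other samples of that line was left out. Its log2 fold change of leaf over stem was -0.67 without the stem of pair 1 (adjusted p = 0.0535 from limma), -0.54 without the stem of pair 3 (adjusted p = 0.101) and -0.62 without the leaf of pair 2 (adjusted p = 0.0569), over a range of 1.57e-06 to 0.101 in 12 alternatives. When 19 genes set the scaling by their geometric mean, in place of actin alone, it was -1.40 (adjusted p = 1.57e-06 from limma). On that scale 11 genes passed as higher and 9 as lower in *Rht-B1a* leaves. The 19 were all genes but hexokinase, GAPC8, the rbcS sequences, rbcL and Rht-B1. They thus included actin and genes that differed between the tissues in either direction. On that scale actin itself had a log2 fold change of leaf over stem of -0.68 in *Rht-B1a* and -0.31 in *Rht-B1b*, and the median of all genes was -0.16 in *Rht-B1a* and -0.080 in *Rht-B1b*. On the actin scale that median was 0.59 in *Rht-B1a* and 0.24 in *Rht-B1b*. Whether actin or the other genes moved between the tissues cannot be told apart.

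The ratio of GAPC8 to hexokinase within a sample does not depend on the scaling, since both values are multiplied by the same number. In the order of pairs 1, 2 and 3 it was 83.9, 49.9 and 82.8 in *Rht-B1b* leaves and 65.9, 72.9 and 80.7 in *Rht-B1a* leaves. It was 765, 569 and 428 in *Rht-B1b* stems and 414, 434 and 608 in *Rht-B1a* stems. All 6 stems lay far above all 6 leaves, and within each tissue the lines overlapped. The means were 72.2 ± 19.3 in *Rht-B1b* leaves, 73.2 ± 7.43 in *Rht-B1a* leaves, 587 ± 169 in *Rht-B1b* stems and 485 ± 107 in *Rht-B1a* stems (SD, n = 3 each). The ratio compares levels per length of the listed sequences. In the order *Rht-B1b* stems, *Rht-B1a* stems, *Rht-B1a* leaves and *Rht-B1b* leaves, the step between the stems and the leaves was the only one larger than the spread.

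**Figure D3:**
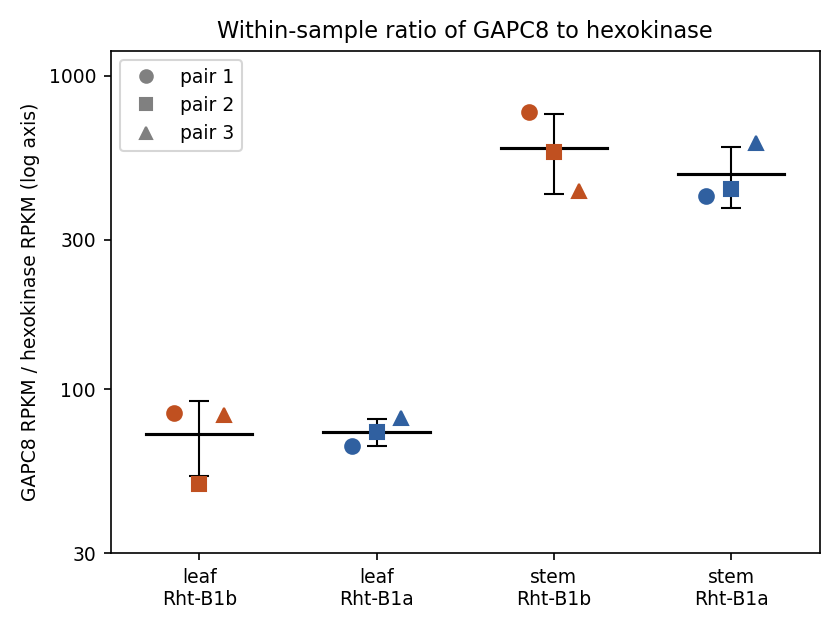
Within-sample ratio of GAPC8 RPKM to hexokinase RPKM (y axis, log scale) in each of the 12 tissue samples by tissue and line (x axis), with marker shape for the pair, long bars for the group mean and error bars for the SD (n = 3). The leaves lie between 49.9 and 83.9 and the stems between 414 and 765, with the lines overlapping in both tissues.

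With tissues permuted within each line, the log2 ratio was lower in leaves by a mean of -2.87 (exact permutation p = 0.005, the smallest possible, adjusted p = 0.03 over 18 exact tests). Within 1 line the exact permutation test again could not go below its smallest p of 0.1, which it gave in both. In a limma fit of the log2 ratio of each gene to hexokinase, the leaf over stem value of GAPC8 was -3.02 in *Rht-B1b* (standard error 0.32, adjusted p = 1.98e-17) and -2.71 in *Rht-B1a* (standard error 0.32, adjusted p = 8.45e-15). In this fit 100% of the 25 genes passed in *Rht-B1b* and 96.0% in *Rht-B1a*, and hexokinase is the denominator of every one of these ratios. The genes also shared 1 standard error there, and these p-values rest on it rather than on how the ratio of GAPC8 alone varied. Among these ratios 8 of 25 genes were higher in leaves and 17 lower in *Rht-B1b*, and in *Rht-B1a* 8 were higher and 16 lower.

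In stems GAPC8 averaged 1.55 times as high in *Rht-B1b* as in *Rht-B1a*. Within the pairs, which were taken from consecutive tissue sample numbers, it was 1.41, 2.06 and 1.37 times as high, above 1 in each of the 3. The log2 fold change of GAPC8, *Rht-B1b* over *Rht-B1a*, was 0.66 (standard error 0.17, 95% interval 0.18 to 1.15), and the adjusted p of 0.0572 from limma missed the threshold (unadjusted p = 0.0207 from limma). In this comparison 8 of 25 genes passed, or 32.0%, all of them higher in *Rht-B1b*, 13 genes had an unadjusted p under 0.05 from limma, and 64.0% of the genes had lines that did not overlap. Of those 16 genes 15 were higher in *Rht-B1b*, as GAPC8 was, and 1 was lower. Without pair 1, 2 or 3 the number of genes that passed was 0, 5 or 5. The log2 fold change of GAPC8 ranked 9 of 26 from the top, above the median of all genes of 0.56. The exact two-sided permutation test gave p = 0.1, the smallest it can give for 3 against 3.

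Hexokinase averaged 1.37 times as high in *Rht-B1b* stems as in *Rht-B1a* stems, with 0.765, 1.57 and 1.94 times in the pairs. The pairs did not share a direction. The log2 fold change was 0.41 (standard error 0.32, 95% interval -0.52 to 1.33, adjusted p = 0.329 from limma). Without pair 1 it was 0.80 (adjusted p = 0.0803 from limma), without pair 2 0.29 (adjusted p = 0.686) and without pair 3 0.13 (adjusted p = 0.790). It ranked 16 of 26, or 17 without the pseudocount, below the median of all genes, and the exact permutation p was 0.4. The ratio of GAPC8 to hexokinase in stems was 1.85, 1.31 and 0.704 times as high in *Rht-B1b* as in *Rht-B1a* in the pairs, and 1.21 times by the means. Its log2 difference was 0.26 (standard error 0.40, adjusted p = 0.857 from limma on each gene over hexokinase, exact permutation p = 0.6), and 0% of the 25 genes passed over hexokinase in stems, with 4 at an unadjusted p under 0.05 from limma. The genes shared 1 standard error in this fit, as in the ratio fits between the lines in leaves and for stem minus leaf. Those standard errors and p-values thus do not rest on how the ratio of GAPC8 alone varied. Without pair 1 the log2 difference of the ratio was -0.058.

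**Figure D4:**
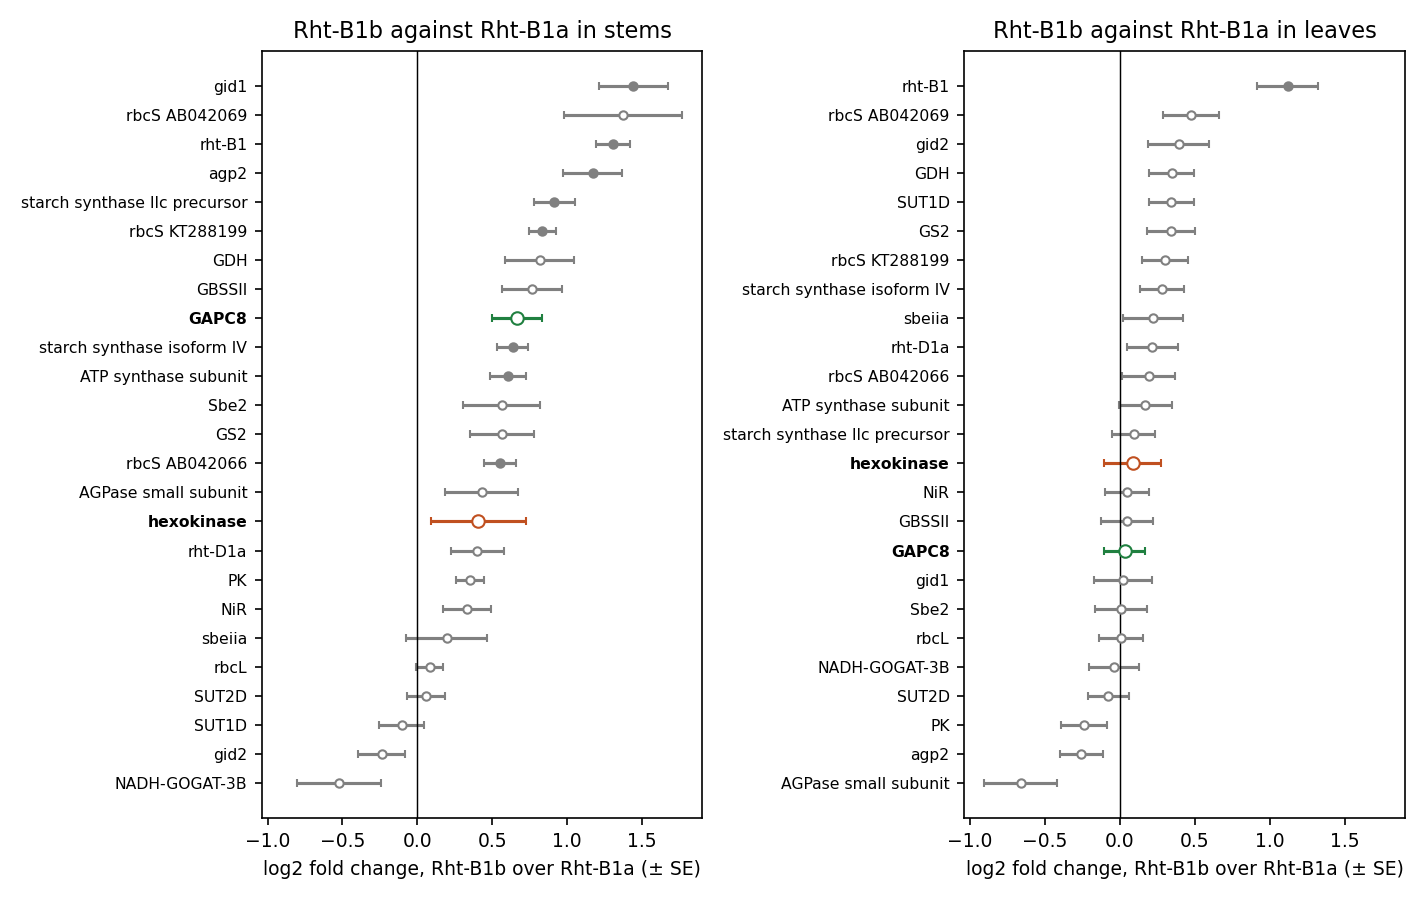
Log2 fold change of *Rht-B1b* over *Rht-B1a* (x axis, ± standard error from limma) for each of the 25 genes tested (y axis, sorted), in stems (left) and leaves (right), with filled points for an adjusted p under 0.05. GAPC8 (0.66) and hexokinase (0.41) are open points in the middle of the stem genes, most of which lie above 0, and both lie near 0 in leaves (0.03 and 0.09).

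The stem value of GAPC8 moved with the way it was computed. Its adjusted p from limma was 0.0480 without the pairs as a block, 0.0365 with a pseudocount of 0, 0.0465 with only genes of a mean of at least 500 RPKM and 0.00642 with both tissues in 1 fit, at the same log2 fold change of 0.66, which passes the threshold. Scaling to the geometric mean of the 19 genes, actin included, gave a log2 fold change of 0.22 (adjusted p = 0.469 from limma), with 3 genes of the set higher and 1 lower past the threshold. Scaling to their median gave 0.29 (adjusted p = 0.224), with 4 higher and 0 lower. On those scales that of hexokinase was -0.032 with the geometric mean and 0.038 with the median, so its direction was not the same under each scaling. Actin itself then had a log2 fold change of -0.44 with the geometric mean (adjusted p = 0.0852 from limma) and -0.37 with the median (adjusted p = 0.166), and the median of all genes was 0.12 with the geometric mean and 0.19 with the median. Lower actin in *Rht-B1b* stems and higher values of the other genes cannot be told apart.

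**Figure D5:**
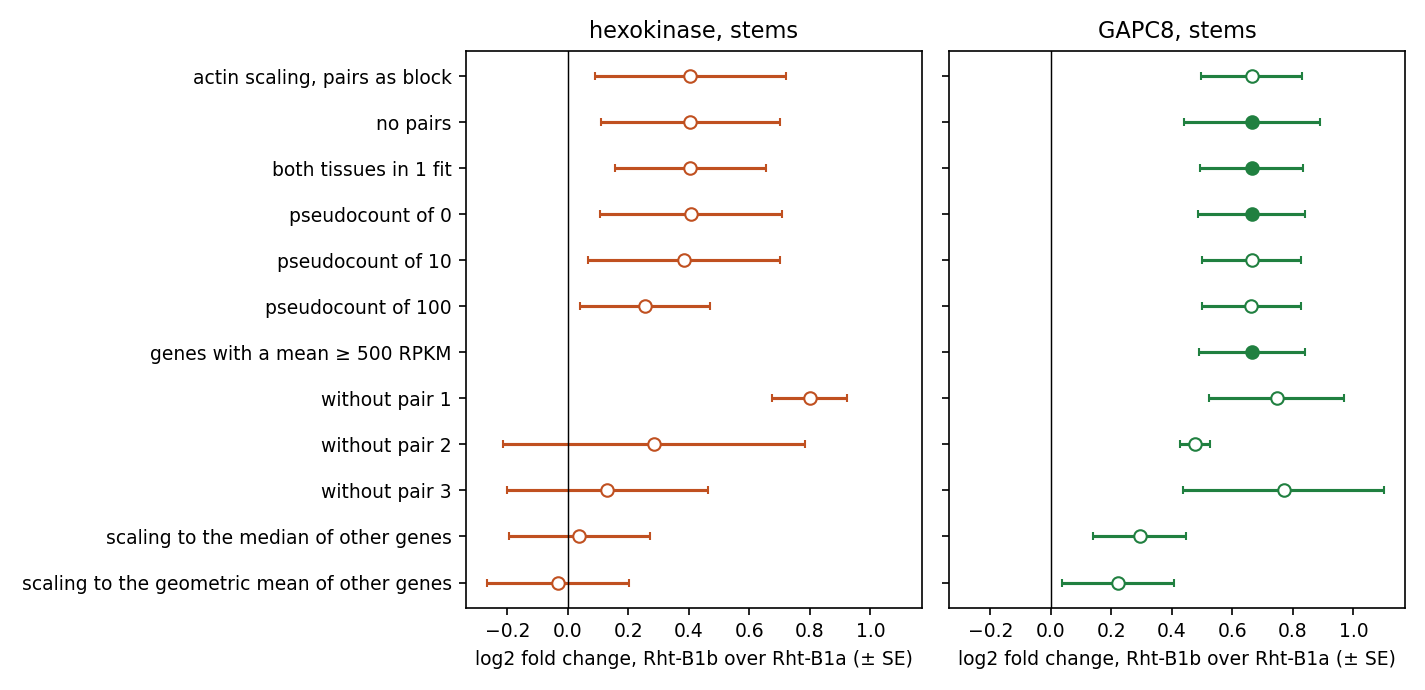
Log2 fold change of *Rht-B1b* over *Rht-B1a* in stems (x axis, ± standard error from limma) of hexokinase (left) and GAPC8 (right) under each way of computing it (y axis), with filled points for an adjusted p under 0.05. The values of GAPC8 stay above 0, from 0.22 to 0.77, and those of hexokinase run from -0.032 to 0.80, with no value for hexokinase where genes of a mean under 500 RPKM were left out.

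In leaves the group means of the lines lay close together for both genes, while hexokinase differed more within the pairs. GAPC8 was 1.03, 0.985 and 1.05 times as high in *Rht-B1b* as in *Rht-B1a* in the pairs, with a log2 fold change of 0.03 (standard error 0.14, 95% interval -0.30 to 0.36, adjusted p = 0.938 from limma, exact permutation p = 0.8). Hexokinase was 0.812, 1.44 and 1.02 times as high, with a log2 fold change of 0.09 (standard error 0.19, 95% interval -0.37 to 0.54, adjusted p = 0.927 from limma, exact permutation p = 0.7). Without the pairs as a block the interval of GAPC8 in leaves was wider, from -0.63 to 0.69, and it then held the 0.66 measured in stems. In that fit hexokinase and GAPC8 had the same standard error of 0.33. The wider interval thus does not rest on how GAPC8 alone varied, and it cannot show whether its leaf values allow the stem value. Of the 25 genes 4.00% passed in leaves, 3 had an unadjusted p under 0.05 from limma, and 4.00% had lines that did not overlap. The ratio was 0.987 times as high in *Rht-B1b* leaves as in *Rht-B1a* leaves by the means, and its log2 difference of -0.05 (standard error 0.25, adjusted p = 0.917 from limma on each gene over hexokinase, where 8.00% of genes passed) had no shared direction in the pairs, at 1.27, 0.684 and 1.03 times. Without pair 2 the log2 difference was -0.13 for hexokinase and 0.19 for the ratio.

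The difference between the tissues in the effect of *Rht-B1b* was tested itself, as the log2 fold change in stems minus that in leaves. It was 0.63 for GAPC8 (standard error 0.24, 95% interval 0.10 to 1.16, adjusted p = 0.0930 and unadjusted p = 0.0232 from limma) and 0.32 for hexokinase (standard error 0.35, 95% interval -0.45 to 1.09, adjusted p = 0.502 from limma). For GAPC8 it was 0.26 when scaled to the geometric mean of the 19 genes, 0.24 when scaled to their median and 0.42 without pair 2. For hexokinase it was -0.051 with the geometric mean, -0.068 with the median and 0.02 without pair 3. Neither passed, while 12% of the 25 genes did, and 10 had an unadjusted p under 0.05 from limma. For the ratio it was 0.31 (standard error 0.47, adjusted p = 0.942 from limma), where 0% of genes passed over hexokinase and 3 had an unadjusted p under 0.05 from limma. With lines permuted within each tissue, the mean log2 difference of *Rht-B1b* over *Rht-B1a* was 0.35 for GAPC8 (exact permutation p = 0.06), 0.25 for hexokinase (exact permutation p = 0.28) and 0.10 for the ratio (exact permutation p = 0.605). Adjusted over the 18 exact tests these were 0.164, 0.42 and 0.726.

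The profiles most like each gene over the 12 tissue samples were found by the root mean square difference of log2 RPKM, with each gene centred on its own mean. For hexokinase the nearest were starch synthase isoform IV at 0.48, gid1, which encodes the gibberellin receptor, at 0.56 and rbcL at 0.67. For GAPC8 they were the Rht-D1 entry, the homeolog of Rht-B1, at 0.31, Rht-B1 at 0.55 and the granule-bound starch synthase GBSSII at 0.55. Hexokinase and GAPC8 differed from each other by 1.46, which made GAPC8 number 21 of 25 in likeness to hexokinase and hexokinase number 17 of 25 in likeness to GAPC8. All samples share the scaling to actin, and the values describe these 12 samples only.

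Around the pathway, 9 genes of starch synthesis and sucrose transport were set beside hexokinase and GAPC8. In stems 3 of the 9 were higher in *Rht-B1b* and 0 lower, against 8 higher and 0 lower of all 25 genes tested, or 32.0%. The median log2 fold change was 0.56 both in the list and over all genes. The 3 were agp2, the large subunit of ADP-glucose pyrophosphorylase (log2 fold change 1.17), starch synthase IIc precursor (0.91) and starch synthase isoform IV (0.64), each with an adjusted p of 0.0241 from limma. In leaves 0 of 9 passed, against 1 of all 25, and their median was 0.05 against 0.09 over all genes. Of leaf over stem in *Rht-B1b*, SUT1D (4.23) and starch synthase isoform IV (0.85) were higher, as hexokinase was, while agp2 (-3.60) and its partner, the ADP-glucose pyrophosphorylase small subunit (-0.91), were lower, as GAPC8 was, and 5 did not pass, so 4 of 9 passed against 18 of all 25 genes. In *Rht-B1a* SUT1D (3.78), starch synthase isoform IV (1.21) and starch synthase IIc precursor (0.87) were higher in leaves, agp2 (-2.17) was lower, and 5 did not pass, which leaves 4 of 9 against 19 of all 25 genes. The genes of the list that passed took both directions between the tissues, but so did the whole set. Of all 25 genes 11 were higher and 7 lower in *Rht-B1b* leaves, and 13 were higher and 6 lower in *Rht-B1a* leaves.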

How the data were processed

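The authors matched reads to selected wheat sequences with ArrayStar (version not given in the sources used here) at 100% over at least 50 bp, and deposited RPKM scaled to actin. The submitters list 24 samples, 2 for each of the 12 tissue samples, and the sheet has 1 column per tissue sample. Of its 27 lines 1 is a repeat. Deposited averages, standard errors and p-values were not used. The study's alignment to rice was not used here.

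Values were compared as log2(RPKM + 1) with limma 3.58.1 in R 4.3.3, without a filter, over 25 genes (Benjamini-Hochberg, two-sided, threshold 0.05). Line comparisons had the pair as a block, as the study's statistics were paired, and neighbours in tissue sample number were taken as pairs, which no source names. Leaf and stem were compared over the 4 groups as independent samples, although they came from the same rows. The ratio was tested without a pseudocount, and exact permutation tests used scipy 1.17.1. The fits of single genes, but not those of the ratio, were checked on simulated data that held no differences between pairs. Named genes were both members, actin, the 3 nearest profiles of each, list members that passed and the leaf markers, and genes ranked beyond a member were named after their values were seen. Members and lists were chosen with earlier results of these data known. Alternatives changed the block, pseudocount, filter, scaling and samples.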

Additional observations from a re-analysis of the deposited data

How the results depend on the processing

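Of 142 alternative values for 15 results, 127 kept the direction and the side of the threshold. Deviations from the line means correlated within the pairs at -0.36, 0.047 and 0.29 in stems and 0.53, -0.11 and 0.76 in leaves. The signs were mixed in both tissues, with the highest values in leaf pairs 1 and 3, so the numbers do not show that every pair shares conditions. For GAPC8 in stems the log2 fold change of 0.66 passed without the replicate block (adjusted p = 0.0480), with both tissues in 1 fit (0.66), with a pseudocount of 0 (0.66) and with genes of a mean of at least 500 RPKM (0.66), and over 11 alternatives its adjusted p from limma ran from 0.00642 to 0.469. No other call of either gene or the ratio changed without the block. Scaled to the geometric mean of the 19 genes, actin included, hexokinase was at -0.032 in stems, GAPC8 at -0.035 in leaves and hexokinase at -0.051 in the stem minus leaf difference, which was -0.068 with their median. Without 1 pair the ratio ran from -0.058 to 0.64 in stems, from -0.26 to 0.19 in leaves and from -0.0033 to 0.74 in stem minus leaf, and hexokinase in leaves from -0.13 to 0.28. Without 1 sample GAPC8 in leaf over stem of *Rht-B1a* ran from -0.95 to -0.54. Genes past the threshold numbered 8 in stems, 14 with both tissues in 1 fit, 13 with a pseudocount of 0, 4 with either other scaling and 0 without pair 1. They numbered 1 in leaves (0 to 3) and 3 in the difference, with 0 without pair 2, 1 without pair 1 or 3 and 2 higher and 3 lower when scaled to the median of the 19 genes. They numbered 16 to 19 (18) in leaf over stem of *Rht-B1b* and 16 to 20 (19) in *Rht-B1a*. Over hexokinase they numbered 0 to 5 in stems (0) and in leaves (2). The filter removed hexokinase except in leaves, so it gave no value elsewhere. The cause of these changes was not tested. With 3 samples a group and unknown depth, the intervals of hexokinase between the lines held 0 and differences in both directions. The smallest difference that could be detected was not computed.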
